A study of Homo sapiens with 6 samples.

Results

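Progress through the G1 phase of the cell cycle depends on the D cyclins, which activate the kinases CDK4 and CDK6, and is held back by CDK inhibitors. The Cip/Kip inhibitors, encoded by CDKN1A (p21), CDKN1B (p27) and CDKN1C (p57), bind cyclin-CDK complexes, the INK4 inhibitors, encoded by CDKN2A (p16), CDKN2B (p15) and CDKN2C (p18), bind CDK4 and CDK6 themselves, and GADD45A is a stress-induced gene of growth arrest. The values given here are those of these 6 inhibitors, the D cyclins CCND1, CCND2 and CCND3, and GADD45A in SKOV3 cells. Their array probes were found by an exact match of the probe sequence to a sense transcript of the gene in GENCODE release 44, since the array files carry no gene names. This gave 23 of the 125601 probes that are not controls, and all 10 genes, of 39641 genes with a probe of their own, had at least 1.

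SKOV3 cells are a long-established line from a human ovarian cancer, written SKOV-3 in the cell line field of the labels and SKOV-1 in the sample titles. The hormone 1α,25(OH)2D3, active vitamin D, acts through a nuclear receptor and has been described to slow the growth of several kinds of cancer cell, with CDKN1A, CDKN1B and GADD45A among the genes discussed as mediators. Of 6 single-color Agilent arrays, 3 are labelled as SKOV3 cells given 100 nmol/L 1α,25(OH)2D3 for 72 h (VD 1 to VD 3) and 3 as SKOV3 cells given the vehicle, ethanol at a matching concentration, for 72 h (vehicle 1 to vehicle 3). The cells of both groups are otherwise the same line in the same medium, and no label says whether the arrays of a group came from separate cultures, so p-values measure the spread between these arrays, which may be technical. Values are the log2 values deposited by the authors, in which the 6 arrays share 1 distribution with a median of 4.78.

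Signals well above background were found for 49.1% to 57.5% of all probes, depending on the array, and the rank correlations between arrays lay between 0.934 and 0.959. VD 1 and VD 2 share slide 1, and VD 3 shares slide 2 with the vehicle arrays. Of the epithelial and ovarian carcinoma markers KRT7, KRT8, KRT18, KRT19, EPCAM, PAX8, WT1, MUC16, ERBB2 and CDH1, 8 of 10 were measured on a complete labelled group, while CDH1 was not and WT1 had no matched probe. Of 8 markers of blood, endothelium and fibroblasts, 5 were measured on a complete labelled group, DCN was well above background on no array and CD68 had no matched probe. The probe A_23_P28815 of CYP24A1, the 1α,25(OH)2D3-degrading enzyme and a well-known target of the hormone, was high on VD 2 at 13.84, vehicle 1 at 14.18 and vehicle 3 at 14.34. It was not well above background on VD 1 at 2.23, VD 3 at 3.30 or vehicle 2 at 4.75. The labels and this probe therefore divide the arrays differently, so arrays are named by their labels, and each direction below is a direction between labels. How the CYP24A1 values came to differ from the labels was not tested.

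Which RNA a probe reads differs among the 23. Of these probes, 11 match the gene's canonical transcript and 12 match other transcripts only, by retained introns, upstream exons or other isoforms, as the map of probe positions shows. One of the 12, OEV5_44930 of CCND3, lies in canonical exons 3 and 5 but spans a junction that the canonical transcript lacks. The sequences below are shown because the results turn on them, and because the lower-case ones read RNA that the spliced canonical mRNA lacks. They run 5′ to 3′ in the sense of the transcript, coding bases are in capitals, bases with no annotated coding frame are in lower case, and positions are those of the exact matches in hg38.
CDKN1A A_24_P89457, exon 2 of 3, chr6:36684401-36684460, plus strand: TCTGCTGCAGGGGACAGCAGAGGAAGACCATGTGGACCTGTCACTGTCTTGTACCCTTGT
CDKN1A OEV5_45823, intron 1, chr6:36680501-36680560, plus strand: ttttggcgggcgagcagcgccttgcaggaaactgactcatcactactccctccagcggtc
CDKN1B A_23_P204696, exon 1 of 3, chr12:12718185-12718244, plus strand: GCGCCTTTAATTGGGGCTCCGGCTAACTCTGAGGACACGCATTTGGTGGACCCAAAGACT
CDKN1C OEV5_32461, intron 2, chr11:2884256-2884315, minus strand: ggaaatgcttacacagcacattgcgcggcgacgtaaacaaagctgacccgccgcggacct
CCND3 OEV5_42293, intron 3, chr6:41937068-41937127, minus strand: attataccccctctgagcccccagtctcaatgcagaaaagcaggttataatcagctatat
CCND3 OEV5_42940, intron 2, chr6:41937715-41937774, minus strand: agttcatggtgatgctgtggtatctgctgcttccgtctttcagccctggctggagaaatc
GADD45A OEV5_67169, intron 2, chr1:67686186-67686245, plus strand: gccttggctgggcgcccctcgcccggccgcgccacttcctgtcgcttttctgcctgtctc
Intron numbers are those of the canonical transcript, and each intron probe matches an annotated transcript that retains that stretch or holds an exon there.

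**Figure D1:**
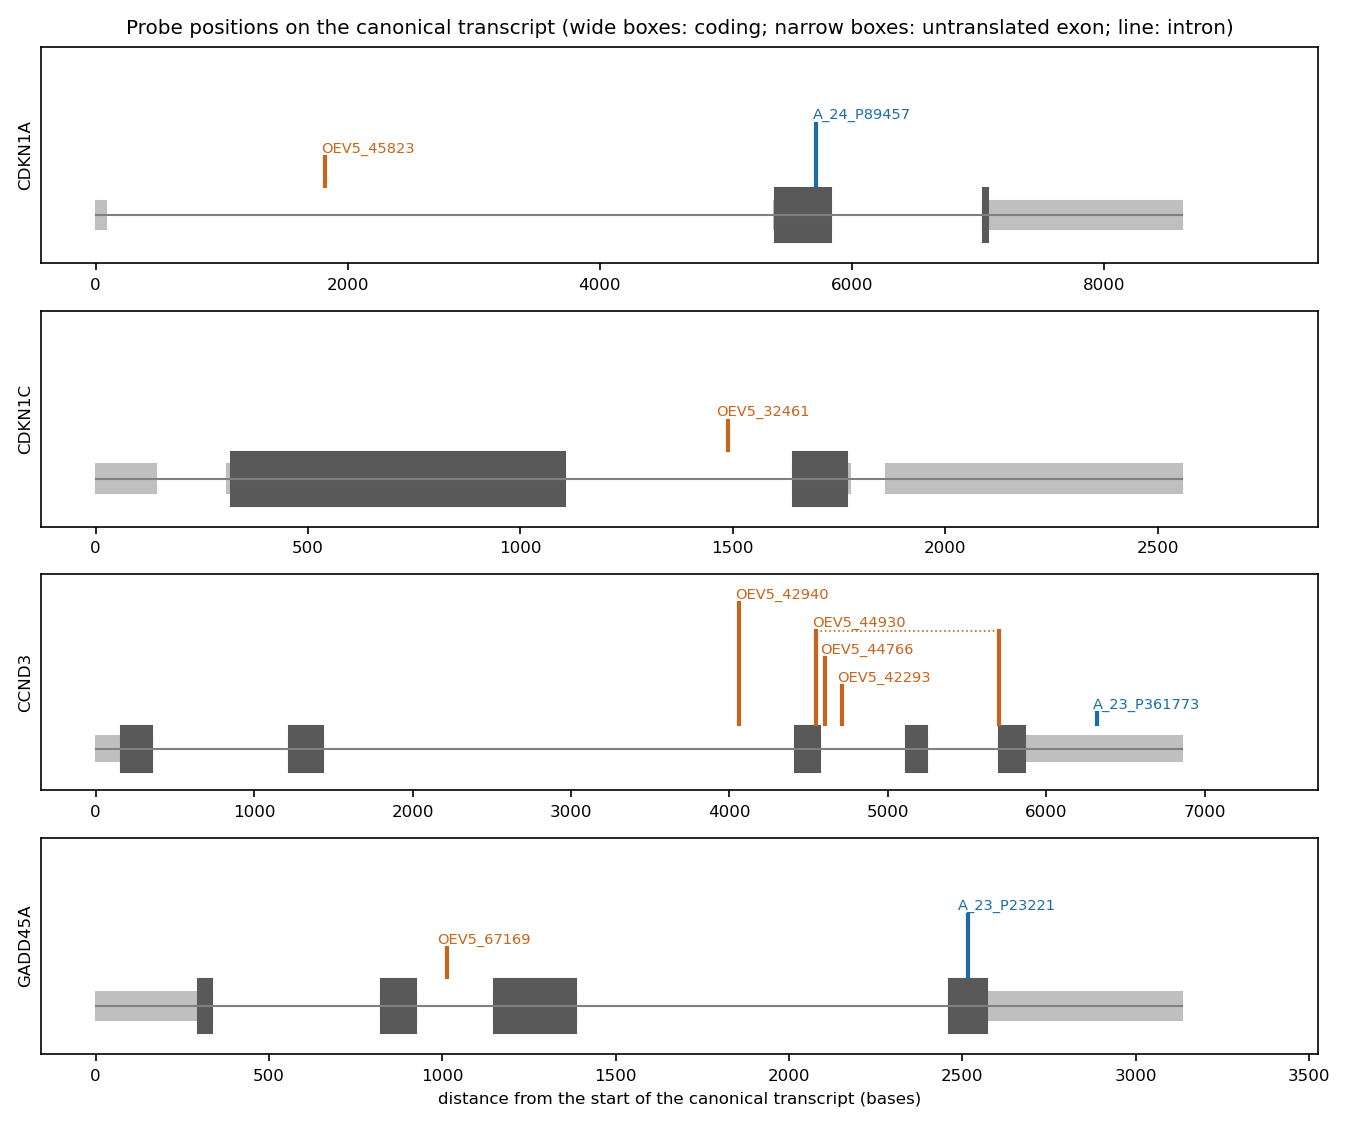
Positions of the probes of CDKN1A, CDKN1C, CCND3 and GADD45A against the canonical transcript, with the distance from its start in bases on the horizontal axis, coding exons as wide dark boxes, untranslated exon as narrow grey boxes and introns as a line. Blue marks are probes that match the canonical transcript and orange marks are probes of other transcripts only, a dotted line joins the parts of a probe that spans a junction, and the CCND3 probe OEV5_48313, far upstream, is not drawn.

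A probe was tested where every array of one labelled group or of both was well above background, which held for 16 of the 23 probes and for 8 of the 10 genes. On all 6 arrays 15 probes were well above background, on no array 6, and on some arrays 2. Among the 16 tested probes 7 had higher and 9 had lower means under the label 1α,25(OH)2D3 (50.6% of all tested probes had lower means), with log2 fold changes from -0.60 to 0.41. In limma with Benjamini-Hochberg adjustment over all 63336 probes tested, 0 of the 16 passed an adjusted p of 0.05, against 0% of all tested probes, and their adjusted p lay between 0.702 and 0.994. The unadjusted threshold, a change of more than 2-fold at an unadjusted p under 0.05, was reached by 0 of the 16, against 0.745% of all tested probes, and an unadjusted p under 0.05 by 1 of the 16, against 6.77%. The values of the labelled groups overlapped for all 16 probes, while over all tested probes the groups did not overlap for 12.2%. The 95% intervals of 7 of the 16 probes reach past a 2-fold change.

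**Figure D2:**
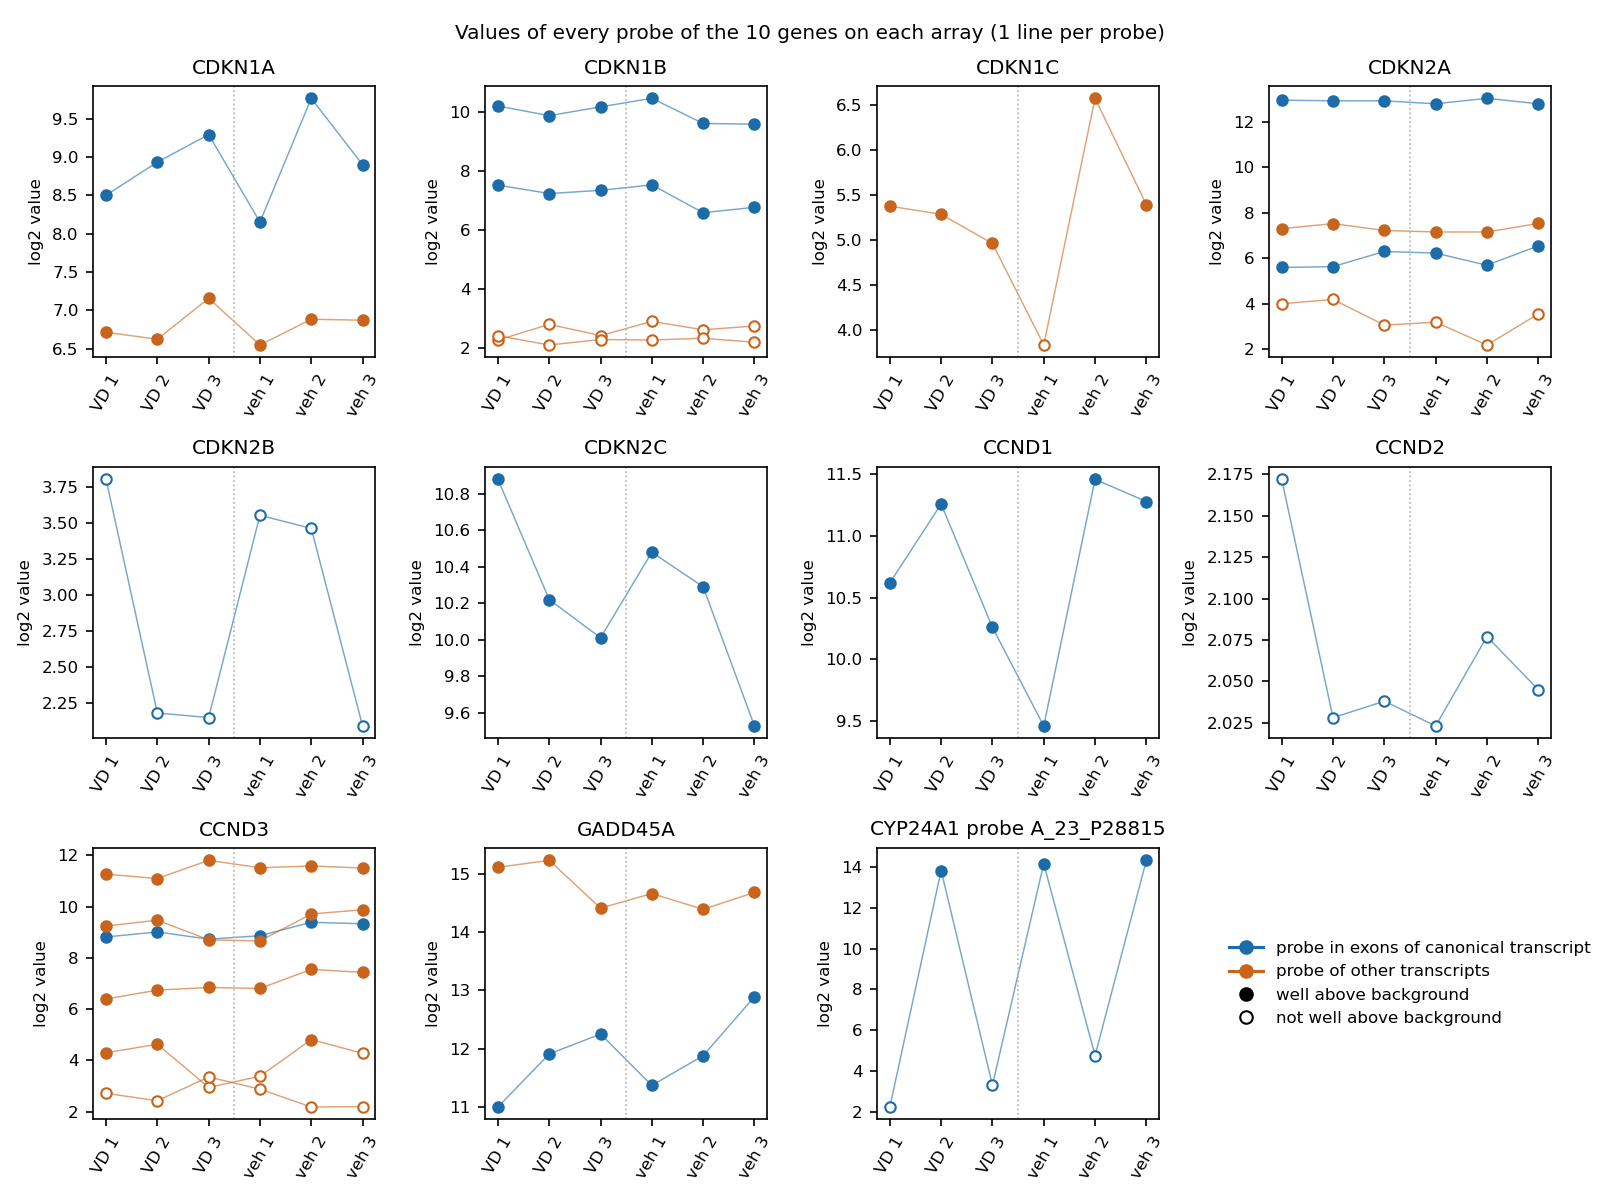
Log2 values of all 23 probes of the 10 genes, 1 panel per gene and 1 line per probe, on VD 1 to VD 3 and vehicle 1 to vehicle 3, with the CYP24A1 probe in the last panel. Filled points are well above background and open points are not, blue probes match the canonical transcript and orange ones other transcripts only, and the vertical scales differ between panels. CDKN2B and CCND2 have open points throughout, and the coding probe of CDKN1A and the probes of CDKN1C and CCND1 have their lowest value on vehicle 1 and their highest on vehicle 2, while the other CDKN1A probe is highest on VD 3. The CDKN1C point on vehicle 1 is open.

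CDKN1A encodes p21, the p53-responsive inhibitor of cyclin E-CDK2 and related complexes. Its coding probe A_24_P89457 had log2 values of 8.50, 8.94 and 9.30 on VD 1, VD 2 and VD 3, and of 8.15, 9.77 and 8.90 on vehicle 1, vehicle 2 and vehicle 3. Both the lowest and the highest value were on arrays labelled vehicle, with all 3 VD arrays between them. The means were 8.91 ± 0.40 (SD, n = 3) for the label 1α,25(OH)2D3 and 8.94 ± 0.81 (SD, n = 3) for vehicle. The log2 fold change was -0.03 (standard error, SE, 0.40, limma's Benjamini-Hochberg adjusted p = 0.987), with a 95% interval from -0.97 to 0.91, or from 1.95-fold lower to 1.88-fold higher. Without vehicle 2 the log2 fold change was 0.38, and with the slide as a block, where VD 3 is set against the vehicle arrays, it was 0.35. The intron 1 probe OEV5_45823, which matches an isoform without an annotated coding frame, ranged from 6.55 on vehicle 1 to 7.16 on VD 3, with a log2 fold change of 0.06 (SE 0.20, limma's Benjamini-Hochberg adjusted p = 0.939).

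CDKN1B encodes p27, which restrains cyclin E-CDK2 in quiescent cells and is degraded through the SKP2 ubiquitin ligase. The coding probe A_23_P204696 gave log2 values of 10.21, 9.88 and 10.18 on VD 1 to VD 3 and 10.47, 9.62 and 9.59 on vehicle 1 to vehicle 3. Vehicle 1 was the highest array and the other vehicle arrays were the lowest. Means of 10.09 ± 0.18 (SD, n = 3) and 9.89 ± 0.50 (SD, n = 3) gave a log2 fold change of 0.20 (SE 0.26, limma's Benjamini-Hochberg adjusted p = 0.842), with a 95% interval from -0.41 to 0.81. The probe A_24_P81841 in the 3′ UTR followed a similar order, with 7.52, 7.24 and 7.35 on VD 1 to VD 3 and 7.53, 6.59 and 6.77 on vehicle 1 to vehicle 3, and a log2 fold change of 0.41 (SE 0.26, limma's Benjamini-Hochberg adjusted p = 0.710). On both probes vehicle 1 alone lay above the VD arrays. Leaving out vehicle 1 raised the log2 fold change of the coding probe to 0.48, with an unadjusted p of 0.0346 and an adjusted p of 0.463 in limma. CDKN1B was the one gene of the 8 whose direction held with every alternative and every left-out array. Its other probes, A_21_P0007824 and OEV5_74847, lie in an upstream exon of isoforms without an annotated coding frame and were well above background on no array.

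CDKN1C encodes p57, an imprinted inhibitor of the same family. Its only probe, OEV5_32461, lies in intron 2 and matches a retained-intron transcript, so the spliced canonical mRNA was not measured. The log2 values were 5.38, 5.29 and 4.96 on VD 1 to VD 3, and 3.83, 6.58 and 5.39 on vehicle 1 to vehicle 3, where vehicle 1 was not well above background, so its value is listed but is no measured level. Of the 5 arrays that measured the probe, vehicle 2 was the highest and VD 3 the lowest. The VD arrays lay close together, at 5.21 ± 0.22 (SD, n = 3), against 5.27 ± 1.38 (SD, n = 3) for vehicle with the listed value of vehicle 1. On the same values the log2 fold change of -0.06 (SE 0.60, limma's Benjamini-Hochberg adjusted p = 0.984) carried the widest 95% interval of the genes, from -1.46 to 1.34. Without vehicle 2 the log2 fold change was 0.59, and without vehicle 1, the array on which the probe was not well above background, -0.78.

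Among the INK4 genes, CDKN2A encodes p16 and, from another reading frame, the p53 activator ARF. Its 3′ UTR probe A_23_P43490 was the steadiest of the 16, with log2 values of 12.95, 12.92 and 12.92 on VD 1 to VD 3 and 12.79, 13.03 and 12.79 on vehicle 1 to vehicle 3. The VD arrays all lay between the vehicle arrays. A range of 0.24 over 6 arrays was equalled or exceeded by 96.8% of all tested probes. The difference between labels was 0.06 on the log2 scale (SE 0.15, limma's Benjamini-Hochberg adjusted p = 0.928), and the 95% interval from -0.29 to 0.40 was the narrowest of the genes. The probe A_33_P3411628 in coding exon 2, which matches 10 of 14 annotated CDKN2A transcripts, varied more, from 5.59 on VD 1 to 6.54 on vehicle 3, and its log2 fold change was -0.31 (SE 0.28, limma's Benjamini-Hochberg adjusted p = 0.769). OEV5_49340, of an isoform outside the canonical transcript, had a log2 fold change of 0.07, and OEV5_63900 was well above background on no array. The probes of this gene do not share a sign, and with the slide as a block that of A_33_P3411628 was 0.14 and that of OEV5_49340 was -0.06. SKOV3 has been described with an altered CDKN2A locus, and which RNA these probes read in the cells was not tested.

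CDKN2B, the neighbour of CDKN2A and a known target of TGF-β, was well above background on no array. Its only probe, A_23_P216812 in exon 1, had log2 values of 3.80, 2.18 and 2.15 on VD 1 to VD 3 and 3.55, 3.46 and 2.09 on vehicle 1 to vehicle 3, and with no level above background no fold change is given. CDKN2C, which encodes p18, was measured by A_33_P3292540 in the 3′ UTR. Its log2 values were 10.88, 10.22 and 10.01 on VD 1 to VD 3 and 10.48, 10.29 and 9.53 on vehicle 1 to vehicle 3. VD 1 was the highest array and vehicle 3 the lowest, with the others mixed between them. The means were 10.37 ± 0.45 (SD, n = 3) and 10.10 ± 0.50 (SD, n = 3), a log2 fold change of 0.28 (SE 0.32, 95% interval -0.46 to 1.01, limma's Benjamini-Hochberg adjusted p = 0.815). Without vehicle 3 it was -0.009, and with the slide as a block it was -0.08.

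CCND1 encodes cyclin D1, the mitogen-induced partner of CDK4 and CDK6. Its 3′ UTR probe A_23_P202837 had log2 values of 10.62, 11.26 and 10.26 on VD 1 to VD 3 and 9.46, 11.46 and 11.28 on vehicle 1 to vehicle 3. The lowest and the highest array were again vehicle 1 and vehicle 2, 3.99-fold apart, and 2.72% of all tested probes spread as far. Means of 10.71 ± 0.51 (SD, n = 3) and 10.73 ± 1.11 (SD, n = 3) gave a log2 fold change of -0.02 (SE 0.53, limma's Benjamini-Hochberg adjusted p = 0.994). The 95% interval ran from -1.25 to 1.21, so a fold change of 2 in either direction could not be told from none. Without vehicle 1 the log2 fold change was -0.65, and without vehicle 2 it was 0.34. CCND2, which encodes cyclin D2, was well above background on no array, with log2 values between 2.02 and 2.17 for its only probe A_24_P278747.

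CCND3 encodes cyclin D3 and had 6 probes, of which 4 were tested. All 4 had lower means under the label 1α,25(OH)2D3, and none passed the test. The probe with the highest values, OEV5_42293 in intron 3, had log2 values of 11.26, 11.09 and 11.80 on VD 1 to VD 3 and 11.51, 11.58 and 11.50 on vehicle 1 to vehicle 3. The vehicle arrays were close together, at 11.53 ± 0.04 (SD, n = 3), and the VD arrays lay on both sides of them. Its log2 fold change was -0.15 (SE 0.21, limma's Benjamini-Hochberg adjusted p = 0.850), and with the slide as a block it was 0.27. The spliced mRNA was read by A_23_P361773 in the 3′ UTR, with log2 values of 8.81, 9.01 and 8.73 on VD 1 to VD 3 and 8.86, 9.39 and 9.33 on vehicle 1 to vehicle 3. Vehicle 2 and vehicle 3 were above all VD arrays and vehicle 1 was among them. Its log2 fold change was -0.34 (SE 0.19, 95% interval -0.79 to 0.10, limma's Benjamini-Hochberg adjusted p = 0.702).

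The intron 2 probe OEV5_42940 of CCND3 was the one probe of the 16 with an unadjusted p under 0.05. It had log2 values of 6.40, 6.74 and 6.84 on VD 1 to VD 3 and 6.81, 7.55 and 7.43 on vehicle 1 to vehicle 3, so that VD 3 lay just above vehicle 1. The means were 6.66 ± 0.24 (SD, n = 3) and 7.26 ± 0.40 (SD, n = 3). Its log2 fold change of -0.60 (SE 0.24, 95% interval -1.16 to -0.05, unadjusted p = 0.0362, limma's Benjamini-Hochberg adjusted p = 0.702) did not pass the adjusted threshold, and it lay between -0.83 and -0.46 when single arrays were left out. With the slide as a block it was -0.42. OEV5_44930, which spans a coding junction of another isoform, had a log2 fold change of -0.28 (SE 0.35, limma's Benjamini-Hochberg adjusted p = 0.833). Of the untested probes, OEV5_44766 was well above background on 3 arrays and OEV5_48313 on none.

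GADD45A encodes a stress protein that binds PCNA and p21 and can arrest cells at the G2/M transition. The coding probe A_23_P23221 had log2 values of 11.00, 11.91 and 12.25 on VD 1 to VD 3 and 11.37, 11.88 and 12.89 on vehicle 1 to vehicle 3. Each label held a low and a high array, 3.71-fold apart at the extremes, and 3.40% of all tested probes spread as far. Means of 11.72 ± 0.65 (SD, n = 3) and 12.05 ± 0.78 (SD, n = 3) gave a log2 fold change of -0.32 (SE 0.45, 95% interval -1.36 to 0.71, limma's Benjamini-Hochberg adjusted p = 0.847). It was 0.10 without vehicle 3 and 0.21 with the slide as a block. The intron 2 probe OEV5_67169, which matches a retained-intron transcript, had the opposite sign when all 6 arrays were fitted, with log2 values of 15.11, 15.23 and 14.41 on VD 1 to VD 3 and 14.66, 14.39 and 14.68 on vehicle 1 to vehicle 3. VD 1 and VD 2 were above every vehicle array and VD 3 was not. Its log2 fold change was 0.33 (SE 0.24, limma's Benjamini-Hochberg adjusted p = 0.726), 0.59 without VD 3 and -0.17 with the slide as a block. VD 1 and VD 2 are the 2 arrays of slide 1.

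**Figure D3:**
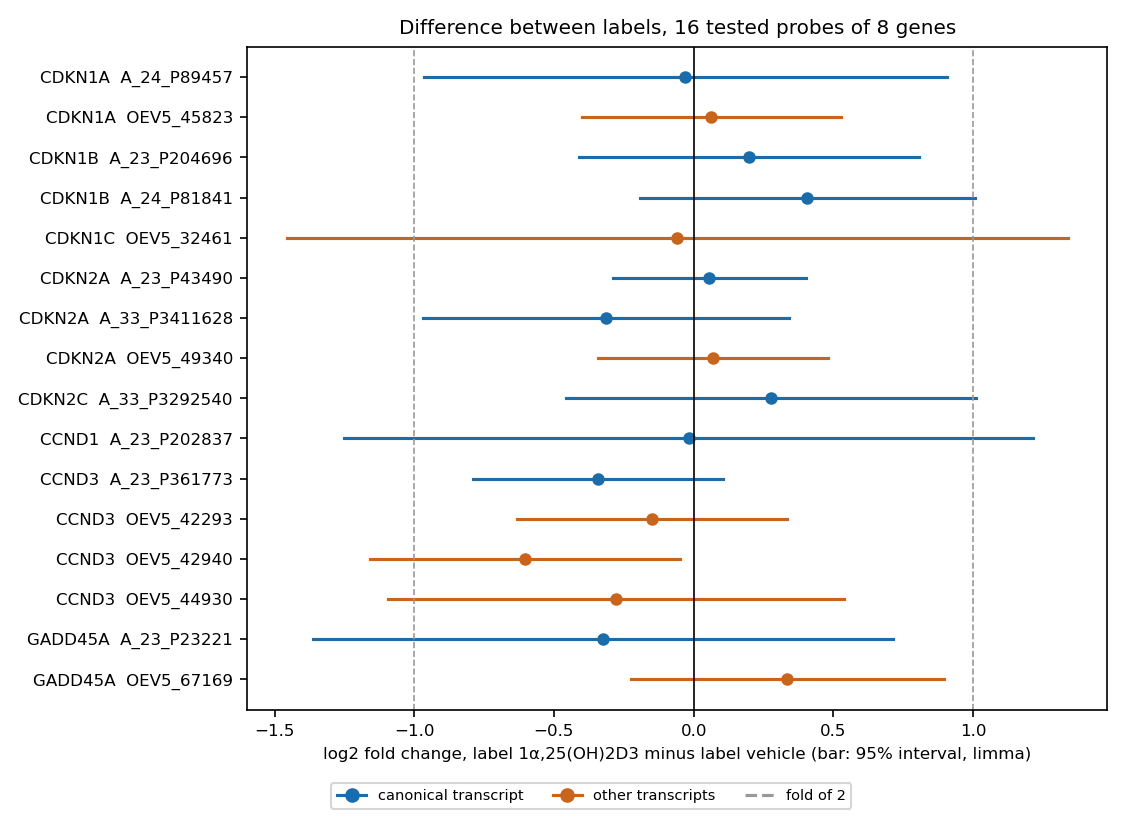
Log2 fold change between the labels, 1α,25(OH)2D3 minus vehicle, for the 16 tested probes of 8 genes, with the 95% interval of the limma fit as a bar. Blue probes match the canonical transcript and orange ones other transcripts only, dashed lines mark a fold change of 2, and the interval of 1 probe, OEV5_42940 of CCND3, does not reach 0.

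Taking for each gene the tested probe with the highest mean, 4 of the 8 genes were higher and 4 lower, with a median log2 fold change of 0.02, against -0.004 over all tested probes. For CDKN1C, CCND3 and GADD45A that probe lies in an intron. The coding probe of GADD45A had the opposite sign, at -0.32, and was lowest on VD 1. The median size of the change without its sign was 0.24 for the 16 probes and 0.18 over all tested probes, and the median range over the 6 arrays was 0.95 against 0.69. On these probes vehicle 2 was the highest array for CDKN1A, CDKN1C, CDKN2A and CCND1, while it was the highest for 17.4% of all tested probes. Vehicle 1 was the lowest array for CDKN1A, CCND1 and CDKN1C (not well above background there), and for 16.4% of all tested probes. Vehicle 3 was the lowest for as many, CDKN1B, CDKN2A and CDKN2C, and for 17.8% of all tested probes, and vehicle 2 was itself the lowest for GADD45A. On their probes used here, a growth inhibitor, p21, and a growth-promoting cyclin, cyclin D1, had their extremes on the same arrays, both labelled vehicle.

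**Figure D4:**
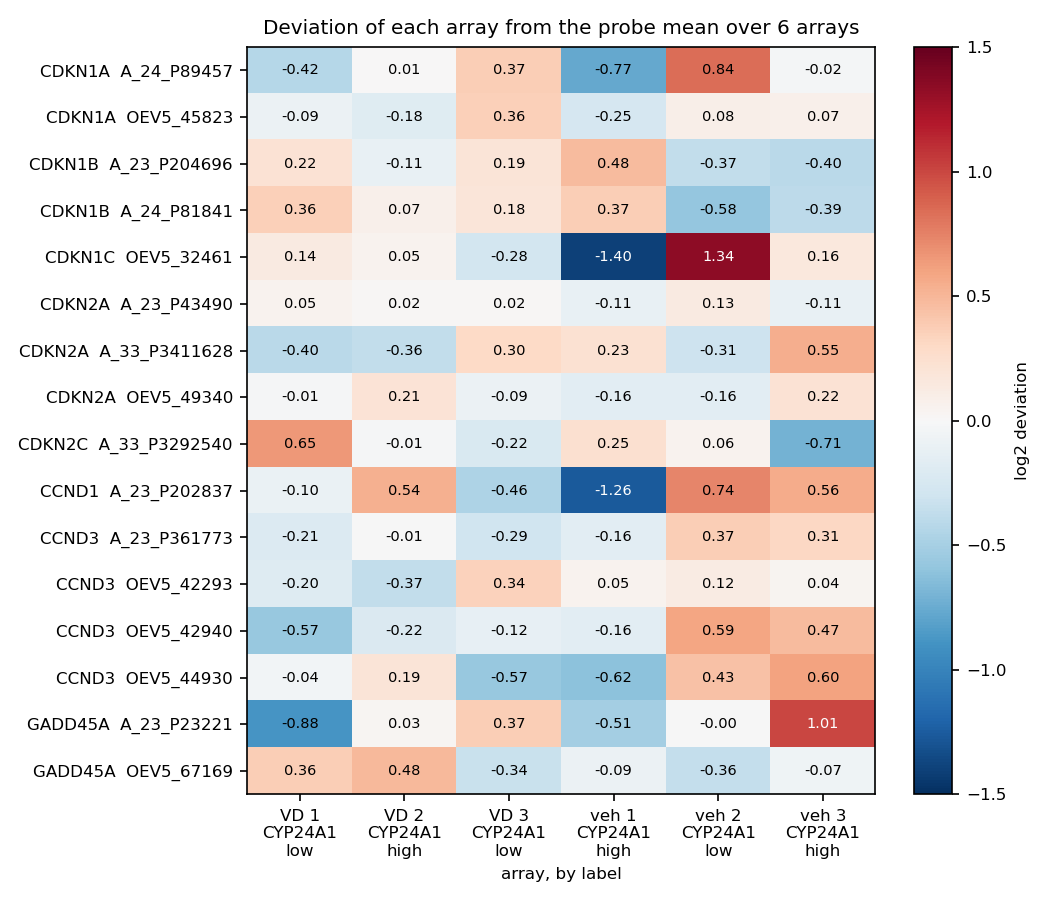
Difference of each array from the mean of the probe over 6 arrays, on the log2 scale and printed in each cell, for the 16 tested probes in rows and the arrays in columns, with the state of the CYP24A1 probe under each array. Red cells are above and blue cells below the mean, and the strongest colors are those of CDKN1C, at -1.40 on vehicle 1, where it was not well above background, and at 1.34 on vehicle 2.

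Set beside the CYP24A1 probe, which is no grouping of the study, the values of the 3 arrays with a high and the 3 with a low signal did not overlap for 1 of the 16 tested probes, against 6.17% of all tested probes. This was CDKN2A A_23_P43490, where VD 2, vehicle 1 and vehicle 3 lay below the other arrays, though VD 2 and VD 3 are equal there to the second decimal. CDKN1A was highest on vehicle 2, a low-CYP24A1 array, and lowest on vehicle 1, a high one, but VD 1, also low, was the next lowest, so the order of this gene follows neither division.

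The list of G1 kinases and E cyclins, which also holds the CDK-activating kinase (CDK7, CCNH and MNAT1) and the phosphatase CDC25A, was measured in full. Of CDK2, CDK4, CDK6, CDK7, CCNH, MNAT1, CCNE1, CCNE2 and CDC25A, 3 had higher and 6 had lower means under the label 1α,25(OH)2D3, 0 of 9 passed limma's adjusted threshold or the unadjusted one, which 0% and 0.569% of 12994 protein-coding genes passed, and the median log2 fold change was -0.18. The lowest value was that of CCNE2, which encodes cyclin E2, at -0.68 (limma's Benjamini-Hochberg adjusted p = 0.760), and the highest that of CCNH, a subunit of the CDK-activating kinase, at 0.10. Over all their tested probes the values ran from -0.70 to 0.53 for CCNE2 and from -0.02 to 0.10 for CCNH. With the slide as a block the log2 fold change was -1.19 for CCNE2 and 0.23 for CCNH. Of the pocket proteins, which hold E2F factors inactive until D cyclin kinases phosphorylate them, and the E2F factors themselves, 11 of 11 were tested, 3 were higher and 8 lower, the median log2 fold change was -0.11, and 0 passed either threshold. E2F1 had the lowest value, -0.55, and E2F5, a factor of the repressing kind, the highest, 0.62. TFDP2, an E2F partner, was the 1 gene of the 11 with an unadjusted p under 0.05 in limma, against 4.93% of protein-coding genes, at 0.0395 and a log2 fold change of 0.51 that did not pass adjustment. With the slide as a block the log2 fold change of TFDP2 was 0.20.

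The order of the vehicle arrays seen for CDKN1A, CDKN1C and CCND1, with vehicle 2 the highest and vehicle 1 the lowest of the 6, was noticed after the values were seen and was then counted in the lists. It held for 3.40% of all tested probes, for 3 of the 8 genes, for 4 of the 9 G1 kinases and E cyclins (CDK2, CDK6, CCNE1 and CCNE2) and for 6 of the 11 pocket proteins and E2F factors (RBL1, E2F1, E2F2, E2F3, E2F6 and TFDP1). For CDKN1C it rests on the value of vehicle 1, where the probe was not well above background. In the other lists it held for 1 of 12 regulators of the inhibitors (MDM2), 1 of 9 other antiproliferative genes (PPM1D), 0 of 5 relatives of the inhibitors, 0 of 4 neighbours of CDKN2A and CDKN2B, 0 of 5 noncoding RNAs, 0 of 8 epithelial markers and 1 of 5 markers of other cell types (VWF). E2F1, the S-phase activator that pocket proteins bind, had log2 values of 8.59, 8.92 and 8.08 on VD 1 to VD 3 and 7.73, 10.43 and 9.07 on vehicle 1 to vehicle 3. CCNE2, an E2F target, had 7.47, 7.96 and 6.95 on VD 1 to VD 3 and 6.81, 9.32 and 8.29 on vehicle 1 to vehicle 3. For both, vehicle 1 and vehicle 2 were the extremes of the 6 arrays, so their distance exceeds that between the label means by construction. The median difference of vehicle 2 from vehicle 1 on the log2 scale was 0.73 for the G1 kinases and E cyclins, 0.51 for the pocket proteins and E2F factors, 0.15 for the 8 genes and -0.005 over all tested probes. It ran the other way for the relatives CDKN2D, CDKN3, GADD45B, CCNG1 and CCNG2, at -0.95, and was -0.04 for the regulators, 0.07 for the other antiproliferative genes, -0.07 for the neighbours, -0.16 for the noncoding RNAs, 0.18 for the epithelial markers and 0.23 for the markers of other cell types. Each gene list was read on the same 6 arrays, so these counts are a description of those arrays.

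Among other inhibitors and relatives, CDKN2D, CDKN3, GADD45B, CCNG1 and CCNG2 were tested and GADD45G was not, 3 were higher and 2 lower, and 0 passed either threshold. CCNG1, the p53 target cyclin G1, had the highest log2 fold change, 0.68 (limma's Benjamini-Hochberg adjusted p = 0.702), and GADD45B the lowest, -0.38. With the slide as a block CCNG1 stood at 1.11 and GADD45B at -0.11. Of 13 regulators of the inhibitors, 12 were tested, 8 higher and 4 lower, with a median of 0.05 and 0 past either threshold. FOXO1, a transcription factor that activates CDKN1B, stood at 0.77 (limma's Benjamini-Hochberg adjusted p = 0.702) and ZBTB17, which encodes MIZ1, a partner of MYC at the CDKN1A and CDKN2B promoters, at -0.53. The tested probes of ZBTB17 ran from -0.53 to 0.19. Fitted with the slide as a block, FOXO1 stood at 1.24 and ZBTB17 at 0.09. SKP2, the ligase subunit for p27, had a log2 fold change of -0.21, and this and the CDKN1B value were both within the spread between arrays.

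Of 10 other antiproliferative genes 9 were tested, 4 higher and 5 lower, and 0 passed either threshold. BTG2, a p53-induced gene that restrains cyclin D1 expression, had the highest value. Its log2 values were 10.05, 9.33 and 9.53 on VD 1 to VD 3 and 9.20, 8.77 and 8.71 on vehicle 1 to vehicle 3, so that the lowest VD array was above the highest vehicle array, and the labelled groups did not overlap for 10.2% of protein-coding genes. The log2 fold change was 0.74 (SE 0.24, unadjusted p = 0.0146, limma's Benjamini-Hochberg adjusted p = 0.702), and it was 0.63 with the slide as a block. PLK2, a p53-responsive polo-like kinase, had the lowest value, -0.41, and its tested probes ran from -0.42 to 0.08. The value of PLK2 was -0.13 with the slide as a block.

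Around CDKN2A and CDKN2B, the neighbours MTAP, CDKN2B-AS1, CDKN2A-DT and IFNE were tested, all 4 had lower means under the label 1α,25(OH)2D3, and 0 passed either threshold. MTAP, which encodes an enzyme of methionine salvage, had a log2 fold change of -0.41, CDKN2A-DT of -0.38 and IFNE, an interferon gene, of -0.21. With the slide as a block MTAP stood at -0.71, CDKN2A-DT at 0.02 and IFNE at -0.46. The tested probes ran from -0.43 to -0.005 for MTAP and from -0.69 to -0.38 for CDKN2A-DT. The antisense RNA CDKN2B-AS1, of which 1 of 16 probes was tested, stood at -0.72 with an unadjusted p of 0.0480 and an adjusted p of 0.702 in limma, and at -0.01 with the slide as a block. DMRTA1 and ELAVL2 were not measured on a complete labelled group and KLHL9 had no matched probe. Next to the other genes, PANDAR, a noncoding RNA upstream of CDKN1A, had a log2 fold change of -0.01, CCND2-AS1 of 0.02 and KCNQ1OT1, the imprinted RNA near CDKN1C, of 0.23, with 0 past either threshold.

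**Figure D5:**
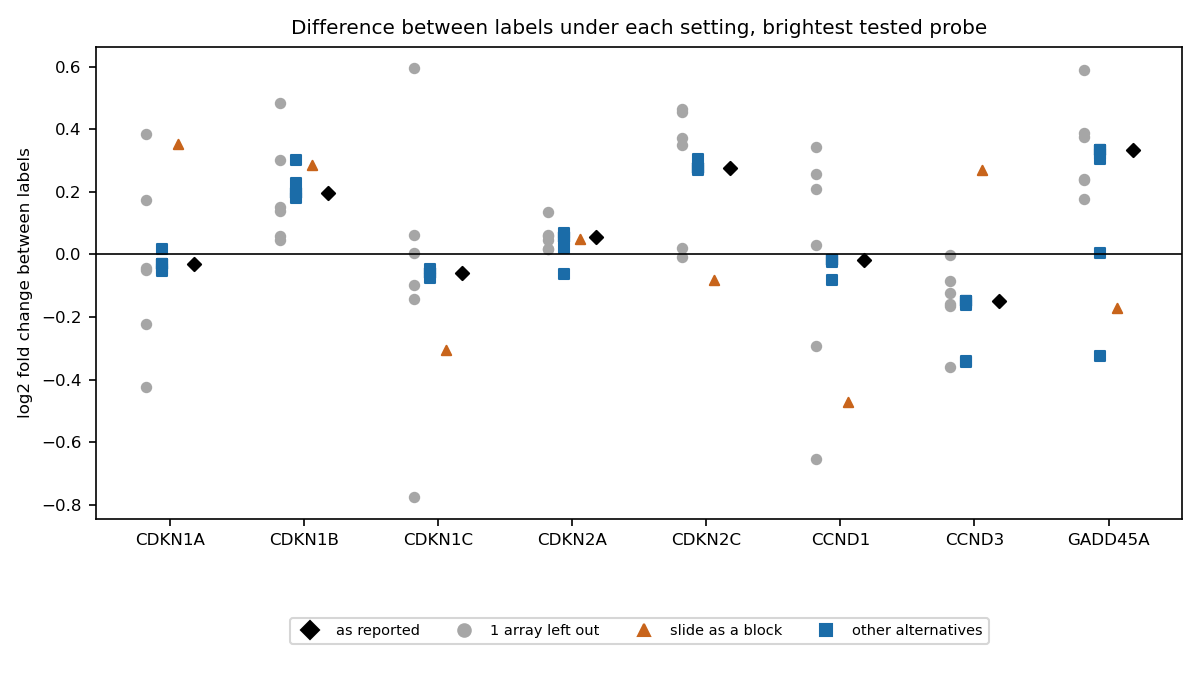
Log2 fold change between the labels for the probe with the highest mean of each of the 8 tested genes, under each way of processing. Black diamonds are the values as reported, grey circles leave out 1 array each, orange triangles take the slide as a block and blue squares are the other alternatives, and CDKN1B is the 1 gene with all points on the same side of 0.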

How the data were processed

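RNA of 6 SKOV3 samples was measured on single-color arrays. Per the labels the authors extracted spots with Agilent Feature Extraction 10.7.1.1, and they deposited for each spot its intensity, on a linear scale, with flags for signals well above background. The authors further deposited log2 values, a single one for every probe on each array. The sorted columns differ by at most 0.000913, so the arrays had been normalized by quantiles, and its rank correlation with the scanner intensity of the same array was at least 0.9998. Its scale is log2, and whether a constant was added is not given in the sources used here. The probes of the 10 genes have 1 spot per array, except A_24_P81841 of CDKN1B with 10, no spot was saturated, and between 1837 and 2471 of 175812 spots per array were marked as outliers.

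Of 125601 probes 90604 (72.1%) matched a GENCODE 44 transcript exactly in sense. The file headers name hg19 for the array design, and positions printed here come from own matches to hg38. Differences between the labels were tested with limma 3.58.1 in R 4.3.3 on the deposited log2 values, without a covariate, for 63336 probes that every array of one labelled group or of both measured well above background, with Benjamini-Hochberg adjustment over these. The thresholds were an adjusted p of 0.05, and a change of more than 2-fold at an unadjusted p of 0.05. For genes with several probes the tested probe with the highest mean was used, and the other probes are given too. The genes named are all members, each gene past the unadjusted threshold or at either end of a list, and the neighbours of members; BTG2, TFDP2, SKP2 and E2F1 values by array were added after the values were seen. Members and lists were chosen with earlier results of these data known. In a fit on simulated data, 78% of 200 changed probes among 63336 were recovered and 9 unchanged probes were called. The sizes set for the changed probes are not given here. Recovery at the sizes reported for the 16 tested probes was not tested. Precision is limited by the number of arrays. Alternatives were scaling to the 75th percentile, normexp background correction with an offset of 50, other filters, the slide or the replicate number as a block, slide 2 alone, the methods' t-test, other choices of probe and each array left out.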

Additional observations from a re-analysis of the deposited data

How the results depend on the processing

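Here each of the 8 tested genes was read by 1 probe or by the mean of its tested probes. On that basis 0 passed either threshold under any alternative run or without any single array. The smallest unadjusted p was 0.0117 and the smallest adjusted p 0.198, both in limma for GADD45A OEV5_67169 without VD 3. Other single probes, such as OEV5_42940 of CCND3, are not in this count. Directions were less steady. Of 73 log2 fold changes under alternatives that keep all arrays or 1 slide, 62 kept their direction and 11 reversed, and of 48 with 1 array left out 10 reversed. Many of the 62 could not reverse. The background filters, the replicate block and the t-test leave the fold change itself as reported. Slide as a block and slide 2 alone give the same fold change by design, so each reversal there enters the 11 under both settings. With the slide as a block, and within slide 2 alone, where VD 3 is set against the 3 vehicle arrays, the log2 fold change became 0.35 for CDKN1A, -0.0826 for CDKN2C, 0.27 for CCND3 and -0.17 for GADD45A. The mean of all tested probes of a gene gave 0.0169 for CDKN1A and -0.0623 for CDKN2A, and the GADD45A probe in exons of the canonical transcript, an alternative chosen after seeing the data, gave -0.32. With 1 array left out the log2 fold change ranged from -0.42 to 0.38 for CDKN1A, from -0.78 to 0.59 for CDKN1C, from -0.00903 to 0.47 for CDKN2C and from -0.65 to 0.34 for CCND1. It changed sign for CDKN1A without VD 1 (0.17) or vehicle 2 (0.38), for CDKN1C without VD 3 (0.06), vehicle 2 (0.59) or vehicle 3 (0.004), for CDKN2C without vehicle 3, and for CCND1 without VD 1 (0.03), VD 3 (0.21), vehicle 2 (0.34) or vehicle 3 (0.26). CDKN1C has no value where a probe must be well above background on all 6 arrays. The cause of these changes was not tested.

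Over all tested probes, the adjusted count was 0 in limma, with 4286 probes at an unadjusted p under 0.05, 0 with the methods' t-test, and 0 to 4 with 1 array left out, the 4 without vehicle 1. The unadjusted threshold, a change of more than 2-fold at an unadjusted p under 0.05, was reached by 472 probes (308 higher, 164 lower), by 34 (15 higher, 19 lower) with normexp background correction, 1612 (872 higher, 740 lower) without a filter on background, 157 (94 higher, 63 lower) with the filter on all 6 arrays, 808 (402 higher, 406 lower) with the slide as a block, 797 (386 higher, 411 lower) within slide 2 and 139 (93 higher, 46 lower) with the methods' t-test, and by 296 to 1181 with 1 array left out. It was 296 without VD 1, 1181 without VD 3 (497 higher, 684 lower) and 1110 without vehicle 1. The 75th percentile scaling gave 371 higher and 142 lower. The sample titles give a replicate number and do not say whether arrays with the same number were paired. Correlations of their deviations were 0.12, 0.09 and -0.03, and those of arrays with different numbers ran from -0.25 to 0.19. The replicate block gave 582 probes and 0 adjusted. As each number holds 1 array of each label, this block could change no direction among the 8 genes. With 3 arrays a label, the 95% intervals of 7 of 16 probes reach past a 2-fold change, those of CDKN1B A_24_P81841, CDKN1C, CDKN2C, CCND1, CCND3 OEV5_42940 and OEV5_44930, and the coding GADD45A probe.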
